A study of Mus musculus with 72 samples.

Results

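The comparison is between livers of mice that had gone 24 h without food and livers of mice fed normal chow freely, both taken at Zeitgeber time 4 (ZT4), which is 4 h after lights on in a cycle of 12 h light and 12 h dark. Both groups are male C57BL/6J mice of 8 weeks, and no genetic change or drug is named for either. The fasted group holds 3 libraries, labelled replicates 1, 3 and 4, and the fed group holds 3, labelled replicates 2, 4 and 5; values per library are given in that order. These 6 libraries are all those of liver at ZT4 among 72, which cover liver and gastrocnemius muscle at 6 times of day. The other 30 liver libraries, fasted and fed mice at ZT0, ZT8, ZT12, ZT16 and ZT20 with 3 libraries each, were used to ask which changes are particular to this hour, and every hour has fed libraries of its own. The 36 muscle libraries served to recognise muscle transcripts. The labels do not say whether the libraries of a group are separate mice, and p-values then measure only the spread among these libraries, which may be technical.

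A liver that receives no dietary sugar burns fatty acids, makes ketone bodies and glucose, and builds less fat and cholesterol. Glucagon, glucocorticoids and the fatty acid receptor PPARα drive the genes of the fasted state, and insulin, acting in part through the SREBP transcription factors, drives those of lipid synthesis. ZT4 falls in the rest phase of mice, which eat mainly in the dark. The circadian clock, in which CLOCK and BMAL1 (gene Arntl) activate the Per, Cry and Nr1d repressor genes, times many of the same metabolic genes.

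Levels are FPKM, that is fragments scaled by transcript length and library size, and changes are log2(FPKM + 0.5), fasted minus fed, each with its standard error (SE); the added 0.5 makes the change of weakly expressed genes look smaller. Depth was estimated from the spacing of low values, at 29.3 to 33.4 M reads (M for mega) for the 6 whole-gene libraries and 23.9 to 27.8 M for their exonic values. Estimated intronic depth was 1.52 to 2.04 M reads in fasted and 0.748 to 1.17 M in fed libraries. Its ratio to exonic depth was 0.0635 to 0.0765 in fasted and 0.0288 to 0.0421 in fed libraries, without overlap. The hepatocyte gene Alb, which encodes serum albumin, stood at 43777, 36844 and 40957 FPKM in the fasted libraries, against 38771, 34287 and 41502 FPKM in the fed libraries. The fasted libraries also held muscle transcripts. Acta1, the actin of skeletal muscle fibres, read 126, 25.6 and 0.862 FPKM in the fasted libraries, against 0.0632, 0.0382 and 0.0209 FPKM in the fed libraries. Ckm, the muscle creatine kinase gene, read 51.7, 15.2 and 0.866 FPKM in fasted and 0.0343, 0.00659 and 0.128 FPKM in fed livers. The mean of 20 muscle markers was 25.4, 8.18 and 0.615 FPKM in the fasted libraries, against 0.254 to 0.262 FPKM in the fed ones. At other hours it was 0.195 to 0.337 FPKM in the 15 fasted libraries and 4.5 to 12.7 FPKM in the 12 fed libraries of ZT8 to ZT20, so that the muscle signal there lay in fed liver. Among 10780 genes tested, 61 had 100 or more times the liver mean in muscle and were set aside. Of these, 42 were higher and 1 lower in fasted liver, and 50 followed the order of fasted replicates 1, 3 and 4. Fasted replicate 1 also stood apart from its group in other genes, among them the insulin-repressed Igfbp1, a binding protein of insulin-like growth factors (1505, 183 and 506 FPKM in fasted and 28.9, 74.2 and 30.2 FPKM in fed livers). Results that depend on it are given with and without it.

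In fasted liver at ZT4, most genes of fatty acid oxidation, ketone body formation, glucose synthesis and amino acid breakdown were higher, and most genes of fatty acid synthesis and all those of cholesterol synthesis were lower. Targets of glucocorticoids, metallothionein genes and a pair of clock repressor genes rose, while genes of complement, interferon response, macrophages and growth hormone signalling were mostly lower on the deposited scale. Of the 10719 genes kept, 4718 changed (44%), with 1205 higher (11.2%) and 3513 lower (32.8%) in fasted liver (limma, Benjamini-Hochberg adjusted p under 0.05), and changes of 2-fold or more were made by 346 rises (3.23%) and 794 falls (7.41%). Across all genes the median change was -0.17, beside which the medians of lists below can be read. Centring the libraries removed the excess of falls: after median-of-ratios scaling the counts were 2245 higher and 2121 lower (median 0.018), and with quantile normalisation 2240 and 2326. Values of the fasted and fed groups did not overlap for 6101 genes (56.9%). Without fasted replicate 1, 3793 genes changed, of which 3667 were among the 4718. With the muscle marker level as a covariate 2358 changed, and with the ratio of intronic to exonic depth 2819. Some genes named below for their role were chosen after their values were seen, and the methods list them.

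The largest rise belonged to Cyp4a14 (chromosome 4, 115486200 to 115496142; mm10, as for all positions below), a fatty acid omega-hydroxylase gene and PPARα target. It read 3709.6, 3818 and 4009 FPKM in the fasted libraries, against 16.2, 11.7 and 4.97 FPKM in the fed libraries, a change of 8.53 ± 0.80 (limma, adjusted p = 1.93e-09). Its neighbours Cyp4a10 (7.41 ± 0.42) and Cyp4a31 (5.41 ± 0.32) rose with it, and since these paralogs are near-identical, how reads divide among them is uncertain. A pair of metallothionein genes, which encode zinc-binding proteins, came next. Mt2 (chromosome 8, 94172664 to 94173568) read 1085, 128 and 324 FPKM in fasted and 5.7, 3.48 and 3.93 FPKM in fed livers (6.22 ± 0.91). Mt1 read 1825, 320.3 and 598 FPKM in fasted and 11.4, 8.34 and 9.19 FPKM in fed livers (6.13 ± 0.84). Both were highest in fasted replicate 1 and far above the fed values in all 3 fasted libraries. Eif4ebp3, an inhibitor of cap-dependent translation, read 1083, 386 and 564 FPKM in the fasted libraries, against 15.6, 15.8 and 17.8 FPKM in the fed libraries (5.20 ± 0.42, adjusted p = 1.24e-10). Cidec, a protein of lipid droplets (chromosome 6, 113424634 to 113435760), went up to 59.7, 40.3 and 53.8 FPKM in the fasted libraries, against 1.08, 0.854 and 0.849 FPKM in the fed libraries (5.17 ± 0.44, adjusted p = 3.74e-10). The steroid hydroxylase gene Cyp17a1 (76.7, 75.6 and 93.2 FPKM in fasted and 5.05, 2.38 and 1.96 FPKM in fed livers; 4.59 ± 0.39) rose evenly across libraries. So did Apoa4, an apolipoprotein of triglyceride-rich particles (3199, 2949.9 and 3558 FPKM in fasted and 211, 160.4 and 111 FPKM in fed livers; 4.37 ± 0.32). Cdkn1a, the cell cycle inhibitor p21, rose by 4.36 ± 0.44 and was highest in fasted replicate 1 (77.5, 23.5 and 31.4 FPKM in fasted and 1.88, 1.32 and 1.11 FPKM in fed livers). Fasted and fed values did not overlap in any of the 10, as the choice of the genes required. Overlapping genes are annotated for Mt2, Apoa4 and Cdkn1a on the other strand and for Eif4ebp3 on the same strand, and their reads cannot be told apart.

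**Figure D1:**
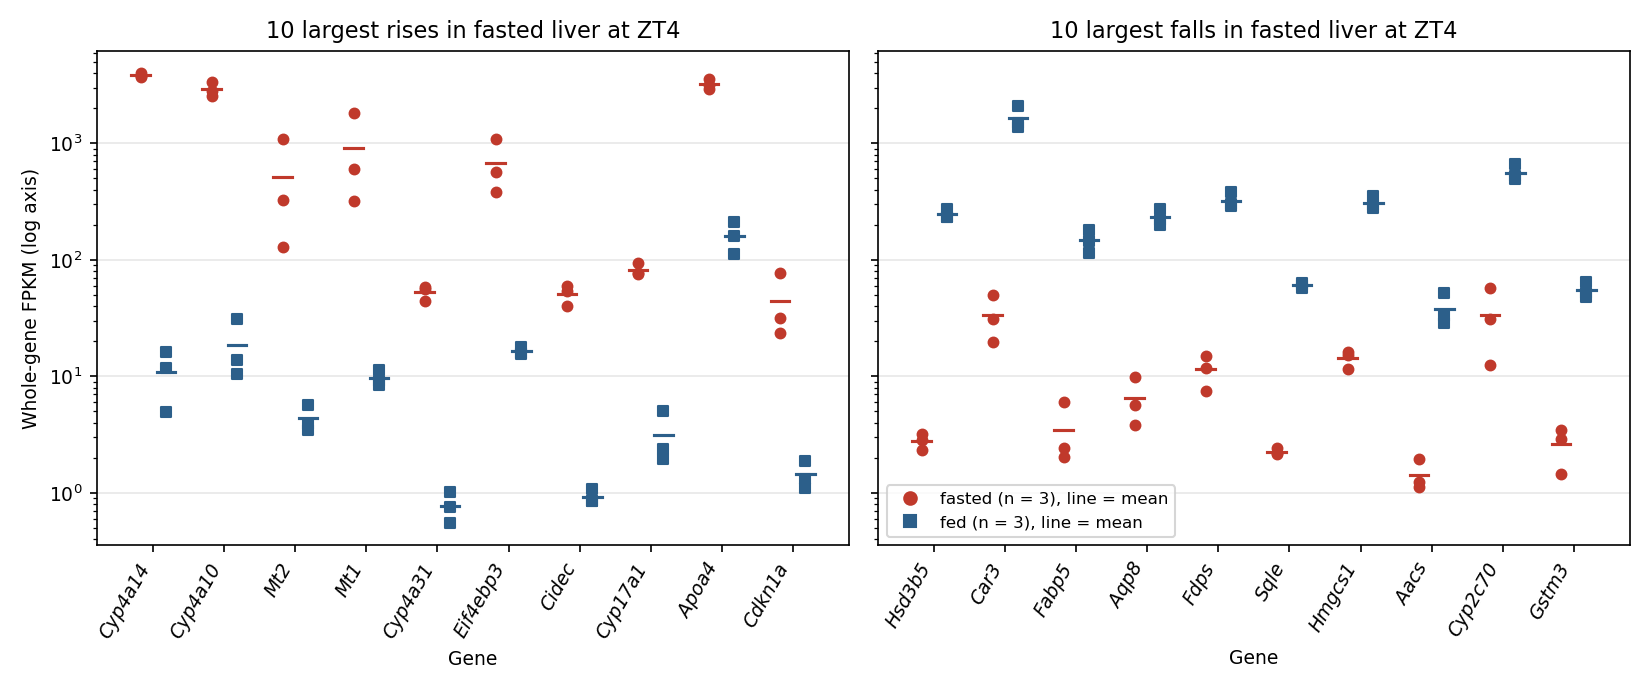
FPKM on a log10 axis in each of the 3 fasted and 3 fed libraries of ZT4 for the 10 largest rises and the 10 largest falls that passed the test, with each point 1 library and each line a mean. Fasted and fed points of every gene lie apart, as the choice of the genes required. The fasted points of Mt2, Mt1 and Cdkn1a spread most among the rises.

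Hsd3b5, which encodes a steroid dehydrogenase more abundant in male liver, fell most (chromosome 3, 98618634 to 98630252). It read 3.2, 2.34 and 2.83 FPKM in the fasted libraries, against 232, 233 and 272 FPKM in the fed libraries (-6.23 ± 0.44, adjusted p = 1.1e-11). Car3, a carbonic anhydrase abundant in liver and fat, read 19.7, 49.8 and 31.3 FPKM in fasted and 1391, 1510.1 and 2092 FPKM in fed livers (-5.68 ± 0.72). The fatty acid binding protein gene Fabp5 read 6.03, 2.02 and 2.41 FPKM in fasted and 114, 181 and 146 FPKM in fed livers (-5.32 ± 0.45). Aqp8, a water and peroxide channel, fell by 5.14 on the log2 scale to 3.83, 9.84 and 5.7 FPKM in the fasted libraries, against 220.2, 199.9 and 274 FPKM in the fed libraries. Enzymes of sterol synthesis made up much of the rest: Fdps, which makes farnesyl pyrophosphate, changed by -4.80 ± 0.31, the squalene epoxidase gene Sqle by -4.47 ± 0.43, and Hmgcs1, the cytosolic HMG-CoA synthase, by -4.38 ± 0.29. Aacs activates acetoacetate in the cytosol for lipid synthesis, and read 1.93, 1.12 and 1.23 FPKM in fasted and 52.1, 28.9 and 33.3 FPKM in fed livers (-4.30 ± 0.40). The bile acid hydroxylase gene Cyp2c70 (-4.28 ± 0.37) and the glutathione transferase gene Gstm3 (-4.21 ± 0.36) completed the 10, with paralogs that may share reads. Annotated genes overlap Hsd3b5 and Hmgcs1 on the other strand and Fdps and Aacs on the same one. No fasted value of these genes came within the fed range, which was again a condition of their choice.

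Genes of fatty acid oxidation and ketogenesis rose as a group: 30 of the 40 listed rose and 2 fell, with a median of 1.05 (all genes: 11.2% rose, median -0.17). Carnitine palmitoyltransferase Cpt1a, which admits fatty acids to mitochondria, read 196, 225 and 206 FPKM in fasted and 79.9, 74.8 and 70.7 FPKM in fed livers (1.47 ± 0.16). The groups did not overlap in Cpt1a, nor in the peroxisomal bifunctional enzyme gene Ehhadh (560.4, 682 and 966 FPKM in fasted and 78.1, 78.5 and 72.1 FPKM in fed livers; 3.23 ± 0.26) or in Cyp4a32 (3.14 ± 0.26). The cytosolic acyl-CoA thioesterase Acot1, whose paralog Acot2 may share its reads, reached 65, 49.8 and 70.2 FPKM in fasted livers, against 3.34, 2.53 and 2.8 FPKM in fed livers (4.19 ± 0.39). The hormone gene Fgf21 rose (4.94, 18.4 and 11.1 FPKM in fasted and 6.03, 1.73 and 1.23 FPKM in fed livers; 1.86 ± 0.61, adjusted p = 0.0146), but its groups overlapped, since fed replicate 2 exceeded fasted replicate 1. The call ended when fasted replicate 3, fed replicate 4 or fed replicate 5 was left out. Pdk4, which shuts off pyruvate oxidation, had the largest change short of the threshold (28.6, 10.3 and 12.2 FPKM in fasted and 7.6, 5.96 and 2.54 FPKM in fed livers; 1.55 ± 0.75, adjusted p = 0.0958). The 2 falls were those of Bdh1, the ketone body dehydrogenase (33.1 ± 16.2 FPKM in fasted and 62.5 ± 5.31 FPKM in fed livers), and the thiolase gene Acaa2 (402 ± 58.6 FPKM in fasted and 501 ± 29.3 FPKM in fed livers), each mean ± SD with n = 3. Neither fall passed under either other scaling or without fasted replicate 1, fed replicate 2 or fed replicate 5. That of Bdh1 did not pass without fed replicate 4 either, nor that of Acaa2 without fasted replicate 4.

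Among all genes 11.2% rose and 32.8% fell (median -0.17). Glucose synthesis draws on amino acids, and of the 24 genes listed for both, 15 rose and 1 fell, while 8 stayed short of the threshold. The list had a median of 0.60, and 12 rises and 0 falls without fasted replicate 1. The fall, of the hydroxyproline enzyme gene Prodh2 (-0.39 ± 0.16), was not called under either other scaling or without fasted replicate 1 or 4 or fed replicate 2 or 5. Pck1, the phosphoenolpyruvate carboxykinase of glucose synthesis, read 1683, 1575 and 1908 FPKM in the fasted libraries, against 268, 550.0 and 301 FPKM in the fed libraries (2.28 ± 0.42, adjusted p = 8.29e-05). G6pc, the last enzyme of the same pathway, read 143, 174 and 255 FPKM in the fasted libraries, against 284, 288 and 173 FPKM in the fed libraries, with overlapping groups and no call (-0.38 ± 0.32, adjusted p = 0.342). Enzymes that break down alanine, lysine, tyrosine and tryptophan rose. They were the transaminase Gpt2 (359, 304 and 301 FPKM in fasted and 101, 83.8 and 92.2 FPKM in fed livers; 1.80 ± 0.15) and the lysine enzyme Aass (474, 336 and 309.8 FPKM in fasted and 71.9, 70.6 and 66 FPKM in fed livers; 2.39 ± 0.21), and with smaller changes the tyrosine-pathway enzyme Hpd (1.11 ± 0.12) and the tryptophan dioxygenase Tdo2 (1.26 ± 0.16). The glyoxylate aminotransferase gene Agxt changed by -0.60 ± 0.29 without passing (adjusted p = 0.0977). In the urea cycle, which disposes of the nitrogen set free, 3 of 5 measured members rose. They were the argininosuccinate lyase Asl (1265, 1232 and 949 FPKM in fasted and 215, 177 and 203 FPKM in fed livers; 2.53 ± 0.15), the arginase Arg1 (1.48 ± 0.12) and the carbamoyl phosphate synthetase Cps1 (1.27 ± 0.14). Otc fell to 67.7, 121 and 99 FPKM in the fasted libraries, against 205, 235 and 216 FPKM in the fed libraries (-1.22 ± 0.25). Nags did not pass (-0.15 ± 0.21), and Ass1 is listed at 0 in all 6 libraries.

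Glucocorticoid-responsive genes were mostly higher, while the other lists of hormone and nutrient responses held rises and falls. Glucocorticoids rise during a fast, and FOXO factors enter the nucleus when insulin is low. Of 18 glucocorticoid-responsive genes, 13 rose and 0 fell (median 1.53). Among them were the receptor cochaperone Fkbp5 (105, 29.3 and 53 FPKM in fasted and 5.97, 7.21 and 6.72 FPKM in fed livers; 2.95 ± 0.26), the transcription factor genes Zbtb16 (2.54 ± 0.29) and Cebpd (11.7, 4.34 and 6.48 FPKM in fasted and 0.882, 0.616 and 0.878 FPKM in fed livers; 2.53 ± 0.31), and the clock gene Per1, described below. Among 20 genes responsive to insulin or FOXO factors there were 9 rises and 5 falls (median 0.82; 12 and 3 with median-of-ratios scaling; 3 falls without fasted replicate 1, fed replicate 2 or fed replicate 4). Among the falls were those of the insulin signalling genes Irs1 and Pik3r1 (-0.73 ± 0.29), the stress gene Gadd45a (-1.44 ± 0.40) and Sesn3 (-0.67 ± 0.26). The calls of Pik3r1 and Sesn3 ended under either other scaling and without fasted replicate 1, fed replicate 2 or fed replicate 4, that of Sesn3 also without fasted replicate 3 and that of Pik3r1 without fasted replicate 4 or fed replicate 5. Foxo1 itself rose (8.86, 8.61 and 9.62 FPKM in fasted and 5.35, 4.96 and 5.21 FPKM in fed livers; 0.75 ± 0.12). Igfbp1 (3.67 ± 0.74) and the mTORC1 inhibitor Ddit4 (217, 6.46 and 50.1 FPKM in fasted and 4.46, 4.25 and 2.67 FPKM in fed livers; 3.33 ± 0.83) rose with a wide spread among fasted libraries, in which replicate 1 was highest. The DNA damage-inducible gene Gadd45b rose by 3.23 ± 0.38 (15.6, 4.42 and 9.52 FPKM in fasted and 0.601, 0.377 and 0.491 FPKM in fed livers). The stress gene Sesn1 did not pass (0.89 ± 0.55). Of 14 measured CREB-responsive and immediate early genes, 3 rose and 1 fell. Jun (1.62 ± 0.40), Sik1 (1.39 ± 0.47) and Btg2 (36.7, 6.33 and 12.4 FPKM in fasted and 2.44, 3.9 and 3.86 FPKM in fed livers; 1.96 ± 0.61) rose, and Crem fell (-0.68 ± 0.27). Myc did not pass (1.41 ± 0.74). Without fasted replicate 1, 2 of them rose and 0 fell, and with median-of-ratios scaling 3 and 0. The call of Btg2 ended without fasted replicate 1, that of Sik1 without fasted replicate 4 or fed replicate 5, and that of Crem under either other scaling and when any library other than fasted replicate 4 was left out. With the muscle marker level as a covariate, Igfbp1, Ddit4, Jun, Sik1, Btg2 and Crem did not pass. Of 17 measured targets of the amino acid response factor ATF4, 2 rose and 6 fell, near the shares of all genes (11.2% rose, 32.8% fell). The counts were 3 and 4 with median-of-ratios scaling, and 1 rose without fasted replicate 1, fed replicate 4 or fed replicate 5. The rises were those of Fgf21 and the stress gene Sesn2 (1.26 ± 0.40, not called without fasted replicate 1). Among the falls were the asparaginyl- and alanyl-tRNA synthetase genes Nars (-0.63 ± 0.11) and Aars (-0.51 ± 0.13, not called with quantile normalisation), the mitochondrial folate enzyme gene Mthfd2 (-1.21 ± 0.29) and the serine phosphatase gene Psph (-1.10 ± 0.16). The asparagine synthetase gene Asns did not pass (1.16 ± 0.53).

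Of 26 genes that build fatty acids and triglycerides, 22 fell, 2 rose and 2 did not pass, with a median of -1.97 (all genes: 32.8% fell). Acss2, which makes acetyl-CoA from acetate, read 22.4, 25.1 and 23.1 FPKM in fasted and 218, 177 and 244 FPKM in fed livers (-3.14 ± 0.21). Acly, which makes it from citrate, read 9.26, 18.1 and 14.9 FPKM in fasted and 128, 135 and 157 FPKM in fed livers (-3.31 ± 0.27). Srebf1, the transcription factor of the insulin-driven lipogenic genes (chromosome 11, 60199089 to 60222581), read 4, 4.59 and 2.84 FPKM in the fasted libraries, against 70.4, 34.4 and 44.5 FPKM in the fed libraries (-3.50 ± 0.29, adjusted p = 2.88e-10). In all of these every fasted value lay far below the lowest fed value. The 2 rises were those of the phosphatidate phosphatase gene Lpin1 (133 ± 116 FPKM in fasted and 11.3 ± 2.07 FPKM in fed livers), which is also a coactivator, and the acyltransferase gene Dgat1 (15.7 ± 2.43 FPKM in fasted and 9.25 ± 0.945 FPKM in fed livers; mean ± SD, n = 3 each). Agpat2 had the largest change that did not pass (-0.46 ± 0.22).

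Cholesterol genes, of synthesis or of uptake, fell in 25 of 25 cases, with a median of -3.12 (24 with median-of-ratios scaling, 24 with quantile normalisation and 24 without fasted replicate 1). Falls ran through the whole pathway. In the part that leads to farnesyl pyrophosphate, Hmgcs1 (chromosome 13, 119690379 to 119708260) read 11.7, 16.3 and 15.2 FPKM in the fasted libraries, against 294, 279 and 354 FPKM in the fed libraries (-4.38 ± 0.29, adjusted p = 2.34e-12). The phosphomevalonate kinase gene Pmvk changed by -3.12 ± 0.18 and Fdps by -4.80 ± 0.31. Of the later sterol enzymes, the lanosterol synthase gene Lss changed by -3.03 ± 0.17 and the demethylase gene Cyp51 by -3.82 ± 0.25 (6.46, 5.54 and 5.44 FPKM in fasted and 91.4, 81 and 93.5 FPKM in fed livers). Msmo1, a methylsterol oxidase, changed by -4.02 ± 0.41 (11.5, 11.7 and 10.3 FPKM in fasted and 184, 172 and 213 FPKM in fed livers). Insig1, the endoplasmic reticulum anchor that holds SREBP proteins back and is itself an SREBP target, fell to 8.4, 8.39 and 9.71 FPKM in the fasted libraries, against 131, 137 and 136 FPKM in the fed libraries (-3.85 ± 0.33). Srebf2, the SREBP gene of this pathway, changed less (4.96, 5.84 and 4.43 FPKM in fasted and 16.6, 11.8 and 13.8 FPKM in fed livers; -1.38 ± 0.17). In the intronic table, where the background of falls was 10.8%, 21 of the 25 fell and 0 rose.

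Since these genes moved together, their promoters were searched for a sterol element (TCACNCCA, a form bound by SREBP factors) and for the CCAAT box (CCAAT, bound by NF-Y), on both strands of the 250 bases before each RefSeq start (GRCm38.p6). Of the 25 genes, 17 have an entry. The sterol letters occurred in 3 of these 17, Hmgcs1, Msmo1 and Srebf2 (17.6%), against 4.17% of tested genes and 3.67% of all promoters. The CCAAT letters occurred in 16 of 17 (94.1%), against 40.4% of tested genes and 33.8% of all promoters. They were as common in another list, with 17 of 18 endoplasmic reticulum folding genes (94.4%). A match is a description of the letters, not a site of binding. The stretches that hold the matches are shown for Hmgcs1 and Msmo1, genes early and late in the pathway with the sterol letters and large falls, and for the regulator Insig1, which holds CCAAT letters but not the sterol letters. Capitals mark the matches (ATTGG is CCAAT on the other strand), and lines run 5′ to 3′ on the strand of the gene.
Hmgcs1: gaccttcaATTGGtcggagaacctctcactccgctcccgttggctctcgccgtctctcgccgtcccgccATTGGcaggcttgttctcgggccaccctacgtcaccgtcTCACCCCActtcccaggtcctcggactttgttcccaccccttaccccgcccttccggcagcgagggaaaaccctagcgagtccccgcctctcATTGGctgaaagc
Msmo1: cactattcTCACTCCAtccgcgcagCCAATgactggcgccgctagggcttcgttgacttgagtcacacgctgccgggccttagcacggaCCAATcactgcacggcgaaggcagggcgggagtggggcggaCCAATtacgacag
Insig1: ctcctcccATTGGctccggcg
They lie at chr13:119690106-119690318 (+ strand), chr8:64733621-64733763 (- strand) and chr5:28071188-28071208 (+ strand), before the RefSeq starts of the genes.

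Bile acids are made from cholesterol in hepatocytes and pumped into bile. Genes of this system moved in both directions: of 19, 4 rose, 6 fell and 9 did not pass (median -0.18, and 5 and 4 with median-of-ratios scaling). Among all genes 11.2% rose and 32.8% fell. Cyp7a1, the rate-limiting hydroxylase of bile acid synthesis (chromosome 4, 6265612 to 6275633), read 103, 135 and 63.2 FPKM in the fasted libraries, against 22.4, 22.3 and 37.2 FPKM in the fed libraries (1.84 ± 0.51, adjusted p = 0.00461). Cyp8b1, which sets the share of cholic acid, read 711, 653 and 577 FPKM in fasted and 248, 281 and 274 FPKM in fed livers (1.27 ± 0.26). Nr0b2, which encodes SHP, a repressor of Cyp7a1, fell to 2.37, 4.01 and 7.89 FPKM in fasted livers, against 35, 22.1 and 13 FPKM in fed livers (-2.21 ± 0.48). The bile acid receptor gene Nr1h4 rose slightly (59.8, 60.6 and 62.6 FPKM in fasted and 45.8, 47.3 and 36.6 FPKM in fed livers; 0.50 ± 0.12). The calls of Cyp7a1 and Nr0b2 ended with the muscle marker level or the intronic depth ratio as a covariate, and that of Nr1h4 with the depth ratio. The bile salt export pump gene Abcb11 fell (28.1, 49 and 42.5 FPKM in fasted and 194, 179 and 166 FPKM in fed livers; -2.19 ± 0.19), whereas the phospholipid export pump gene Abcb4 rose (0.79 ± 0.14) and the sterol ring enzyme gene Hsd3b7 fell (-1.10 ± 0.13). Cyp7b1 did not pass (-0.83 ± 0.42). Of 20 genes of glycolysis and glycogen, 2 rose and 9 fell (median -0.56; 4 and 9 with median-of-ratios scaling). The falls included glycogen phosphorylase Pygl (77.3, 76.7 and 75.6 FPKM in fasted and 235, 221 and 204 FPKM in fed livers; -1.52 ± 0.21) and the branching enzyme Gbe1 (-1.19 ± 0.16), whereas the lactate dehydrogenase gene Ldha rose (0.66 ± 0.19). The glycogen targeting subunit gene Ppp1r3c did not pass (-1.30 ± 0.57).

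Of 19 measured NRF2 antioxidant genes, 12 fell, 2 rose and 5 did not pass (median -0.91; 1 rose without fasted replicate 3 or 4 and 0 without fed replicate 4). Gstm1 was at 251, 319 and 268 FPKM in fasted and 971, 682 and 876 FPKM in fed livers (-1.58 ± 0.18). The pentose phosphate enzyme Pgd was at 8.71, 9.91 and 9.83 FPKM in fasted and 27.7, 26.2 and 26.2 FPKM in fed livers (-1.45 ± 0.15). Gclc, which limits glutathione synthesis, was at 15.7, 27.2 and 34.9 FPKM in fasted and 113, 125 and 100.3 FPKM in fed livers (-2.17 ± 0.25). The rises were those of Nqo1, a quinone reductase gene (0.72 ± 0.21, not called without fed replicate 4), and the sulfiredoxin gene Srxn1 (0.52 ± 0.18, not called without fasted replicate 3 or 4 or fed replicate 4). Gsta1 did not pass (-0.69 ± 0.29). Of 22 measured P450 genes of families 2 and 3, 6 rose and 8 fell (median -0.38, all genes: 11.2% rose and 32.8% fell). The falls included the vitamin D hydroxylase gene Cyp2r1 (1.47, 2.57 and 2.89 FPKM in fasted and 12.8, 12.9 and 12.9 FPKM in fed livers; -2.29 ± 0.18) and Cyp2c55 (-2.45 ± 0.21), and the rises Cyp2c39 (2.42 ± 0.27). Cyp2c40 did not pass (-1.16 ± 0.63), and reads of the Cyp2c paralogs may be shared. Of 24 genes of the growth hormone axis and of male-biased expression, 15 fell and 2 rose (median -0.87; 10 and 2 with median-of-ratios scaling). Besides Hsd3b5, the receptor gene Ghr fell (24.7, 42.1 and 43.4 FPKM in fasted and 98.5, 125 and 123 FPKM in fed livers; -1.68 ± 0.27). So did Selenbp2 (-3.24 ± 0.49) and the complement gene C6 (-1.15 ± 0.20). Igfbp1 and Igfbp2 (1.20 ± 0.27), binding proteins of insulin-like growth factors, rose. Cish, a feedback inhibitor of the pathway, did not pass (-1.44 ± 0.90).

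The liver makes most plasma proteins and holds resident macrophages, the Kupffer cells. On the deposited scale most genes of complement and coagulation, interferon response and macrophages were lower, whereas acute phase genes split. Over all genes 11.2% rose and 32.8% fell. Of 23 measured complement and coagulation genes, 17 fell and 1 rose (median -0.56; 10 and 1 with median-of-ratios scaling). Among the falls were the membrane attack genes C8a (69.6, 78.1 and 91.5 FPKM in fasted and 219, 281 and 251 FPKM in fed livers; -1.65 ± 0.20) and C8b (-1.28 ± 0.15), coagulation factor F11 (-1.49 ± 0.19) and the antithrombin gene Serpinc1 (-0.58 ± 0.091), and the single rise was that of coagulation factor F9 (0.55 ± 0.12). C4b did not pass (-0.50 ± 0.25). Acute phase genes split, with 7 rises and 8 falls of 24 (7 and 3 with median-of-ratios scaling; 5 falls without fasted replicate 3 or 4 or fed replicate 4 or 5). Lbp, which binds bacterial lipopolysaccharide (63.7, 50.2 and 47.2 FPKM in fasted and 18.2, 17.4 and 14.9 FPKM in fed livers; 1.64 ± 0.24), the interleukin receptor gene Il6ra (1.89 ± 0.30) and Serpina3n (1.51 ± 0.27) rose. Steap4 fell (-1.82 ± 0.20). Saa1 did not pass (-1.38 ± 0.99). Of 20 interferon-responsive genes, 16 fell and 0 rose (median -1.04; 10 and 0 with median-of-ratios scaling). They included the regulator Irf7 (4.64, 9.1 and 6.62 FPKM in fasted and 22.4, 23.9 and 23.9 FPKM in fed livers; -1.76 ± 0.23), the ubiquitin-like Isg15 (-2.04 ± 0.36), Oas1a (-1.24 ± 0.22) and Ifit3 (-1.52 ± 0.27). Gbp7 did not pass (-0.55 ± 0.25). Macrophage markers moved with them: 11 of 12 fell and 0 rose (median -1.03), and the summed level of the list was 72.6 to 116 FPKM in fasted and 200.3 to 236 FPKM in fed libraries, with no marker at 0 in all 6. The lysozyme gene Lyz2 changed by -1.36 ± 0.25, Timd4 by -1.05 ± 0.22, Adgre1 (F4/80) by -1.27 ± 0.29 and Vsig4 by -1.01 ± 0.24, while Marco did not pass (0.10 ± 0.58). With the intronic depth ratio as a covariate, 1 macrophage marker fell. In bulk tissue, fewer cells of a type and less of its RNA per cell cannot be told apart, and the part of these cells in the fall of immune genes was not tested.

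Markers of other cells moved less uniformly (all genes: 11.2% rose, 32.8% fell). Of 11 endothelial markers, 6 fell and 2 rose; these counts were 2 and 2 after median-of-ratios scaling, 2 and 0 without fasted replicate 1, 2 and 1 without fed replicate 2 or 4 and 6 and 0 without fed replicate 5. The list summed to 55.5 to 64.5 FPKM in fasted and 76.6 to 97.3 FPKM in fed libraries. Clec4g (-1.16 ± 0.24), Cdh5 (-0.69 ± 0.18) and Oit3 (-0.70 ± 0.25) fell, and Lyve1 (0.98 ± 0.36) and the scavenger receptor gene Stab1 (0.40 ± 0.17) rose. The call of Stab1 ended without any one library but fed replicate 2. The calls of Oit3 and Lyve1 ended without fasted replicate 1 or fed replicate 2, that of Oit3 also without fed replicate 4 and under either other scaling and that of Lyve1 without fed replicate 5. Egfl7 did not pass (-0.43 ± 0.21). Of 9 measured stellate cell and fibroblast markers, Pdgfra (0.93 ± 0.16) and Hgf (0.71 ± 0.24, not called without fasted replicate 4 or fed replicate 5) rose, and Lrat (-1.20 ± 0.27) and Col1a1 (-1.13 ± 0.29) fell. Reln did not pass (-0.63 ± 0.30). Of 5 measured cholangiocyte markers, Spp1 (7.58, 21 and 11.3 FPKM in fasted and 38.7, 65.7 and 46.4 FPKM in fed livers; -1.97 ± 0.35), Krt19 (-0.95 ± 0.28) and Epcam (-0.71 ± 0.20, not called with the length trend removed) fell. The list summed to 10.3 to 24.5 FPKM in fasted and 43.8 to 71.3 FPKM in fed libraries. Krt7 did not pass (-0.58 ± 0.25). Of 14 measured extracellular matrix genes, 8 fell and 0 rose (median -0.61). They were led by the fibrillar collagen gene Col3a1 (1.93, 1.48 and 1.4 FPKM in fasted and 9.76, 10.3 and 9.05 FPKM in fed livers; -2.28 ± 0.32), with Sparc (-0.98 ± 0.26) and Col14a1 (-1.08 ± 0.31). Lum did not pass (-0.56 ± 0.28). The hepatocyte markers themselves split, with 2 rises and 3 falls of 11 (4 and 2 with median-of-ratios scaling; 1 rise without fed replicate 4 or 5), and summed to 67689.8 to 82725 FPKM in fasted and 65477 to 78525 FPKM in fed libraries. The transthyretin gene Ttr (-1.04 ± 0.17), Serpina1c (-0.76 ± 0.17) and Fgb (-0.61 ± 0.16, not called with median-of-ratios scaling) fell. Cps1 and the nuclear receptor gene Hnf4a (0.48 ± 0.16, not called without fasted replicate 1, fed replicate 4 or fed replicate 5) rose. Apob did not pass (0.54 ± 0.26). Erythroid, lymphocyte and pancreas lists had at most 2 measured members each, of which Alas2 (-1.44 ± 0.22), Cd4 (-0.77 ± 0.22) and Cela1 (-1.94 ± 0.22) fell; Hbb-bs (-1.03 ± 0.77) and Cela2a (-0.34 ± 0.26) did not pass. The erythroid list summed to 22.9 to 27.7 FPKM in fasted and 64.3 to 76 FPKM in fed libraries. Neutrophil and nerve lists had no call, though 1 nerve marker and a further pancreas marker fell without fasted replicate 1 (S100a8 -0.15 ± 0.54, Pmp22 -0.36 ± 0.20). Of the adipocyte list Cidec was the single gene tested and kept, beside Adipoq, the adiponectin gene of fat cells, with 0.679, 0.412 and 0.0492 FPKM in fasted and 0, 0 and 0.0266 FPKM in fed livers. Listed at 0 in all 6 libraries were the neutrophil genes Ngp and Ltf, the adipocyte gene Lep and the pancreatic genes Cela3b, Pnlip and Ins2. Of the slow muscle fibre markers, Tnnc1 alone was tested and kept, without a call (0.45 ± 0.25).

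Of 20 genes of protein folding in the endoplasmic reticulum, 8 fell, 1 rose and 11 did not pass (median -0.64; all genes: 32.8% fell). In the fit with the muscle marker level as a covariate 1 fell and 2 rose (6 fell and 2 rose with median-of-ratios scaling; 14 fell without fasted replicate 4, and 2 rose without fasted replicate 3 or fed replicate 2). These genes fold and check secreted proteins. The disulfide isomerase gene Pdia6 read 45.3, 59 and 80.7 FPKM in fasted and 154, 213 and 179 FPKM in fed livers (-1.58 ± 0.21). The degradation factor gene Edem1 fell too (14.8, 20.0 and 24.5 FPKM in fasted and 43, 39.6 and 35.2 FPKM in fed livers), and the lectin chaperone gene Canx changed by -0.80 ± 0.16 and Sdf2l1 by -1.94 ± 0.44. The single rise was that of Herpud1, which takes part in disposal of misfolded proteins (305, 116 and 275 FPKM in fasted and 111, 92.2 and 88.4 FPKM in fed livers; 1.14 ± 0.29). Creld2 did not pass (-0.86 ± 0.41). Genes of ribosome biogenesis were more often higher than lower (all genes: 11.2% rose): of 24, 11 rose and 1, Nop10 (-0.50 ± 0.17), fell, and with median-of-ratios scaling 16 rose and 0 fell. The rises numbered 2 with the muscle marker level and 6 with the intronic depth ratio as a covariate, 6 without fasted replicate 1 and 5 without fed replicate 4 or 5. The call of Nop10 ended without fasted replicate 4 or fed replicate 5 and under either other scaling. Named among the rises are the RNA polymerase I subunit gene Polr1a (4.92, 4.43 and 4.81 FPKM in fasted and 2.99, 2.49 and 2.25 FPKM in fed livers; 0.77 ± 0.16) and Nop58 (1.28 ± 0.28). The nucleolin gene Ncl (0.58 ± 0.12) rose, as did Rrp12 (1.11 ± 0.27). Nop2 did not pass (0.55 ± 0.26). Of 22 cytosolic ribosomal protein genes 10 fell and 0 rose on the deposited scale (4 without fed replicate 2, 5 without fed replicate 5 and 6 without fasted replicate 3). Examples are Rpl7 (-0.38 ± 0.10), Rpl19 (-0.40 ± 0.11; 0.0023 with the length trend removed), Rps2 (-0.69 ± 0.20) and Rplp0 (-0.36 ± 0.11). None of the list passed with either median-of-ratios scaling or quantile normalisation. Rpl13 did not pass (-0.56 ± 0.30). Their median lay -0.19 from that of all genes, and many such genes have near-identical pseudogenes, which can take their reads. Of 24 respiratory chain genes 7 fell and 0 rose as deposited, a share of falls below that of all genes (32.8%), and their median of -0.16 lay 0.0094 from that of all genes. With median-of-ratios scaling 0 fell and 3 rose. Changes on the deposited scale were -0.42 ± 0.085 for Sdha, -0.43 ± 0.14 for Ndufa1, -0.30 ± 0.10 for Sdhc, -0.33 ± 0.12 for Ndufb8 and, short of the threshold, -0.34 ± 0.17 for Cox7a2. There were 2 to 4 falls and 0 rises without fasted replicate 1 or 4 or any one of the fed libraries.

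Of 27 proteasome subunit genes 2 rose and 2 fell (all genes: 44% called), against 8 rises and 0 falls with median-of-ratios scaling. The rises were those of Psmd4 (0.74 ± 0.20) and Psmc1 (0.32 ± 0.10, not called without fed replicate 4), and the falls those of Psma1 (-0.37 ± 0.12, not called without fasted replicate 1) and Psmb6 (-0.37 ± 0.13; 0.0039 with the length trend removed and 0.0068 with the intronic depth ratio as a covariate; not called without fasted replicate 4, fed replicate 2 or fed replicate 5). Psmc4 did not pass (0.30 ± 0.13). Autophagy and lysosome genes split, with 6 rises and 6 falls of 25 (8 and 2 after median-of-ratios scaling). The shares of rises and falls over all genes were 11.2% and 32.8%. The mitophagy receptor gene Bnip3 (274, 159 and 189 FPKM in fasted and 58.2, 51.5 and 54.5 FPKM in fed livers; 1.88 ± 0.21) and Map1lc3b (0.78 ± 0.17) rose. The kinase gene Ulk2 (-1.04 ± 0.16) and the cathepsin gene Ctsb (-0.73 ± 0.13) fell. Ulk1 did not pass (-0.44 ± 0.21). Of 15 measured heat shock and cold-inducible genes 3 rose and 0 fell (5 and 0 with median-of-ratios scaling or without fasted replicate 1). One was Hspa8 (0.61 ± 0.19, not called without fasted replicate 4). The others were the RNA-binding cold-inducible genes Cirbp (36.1, 31.6 and 29.1 FPKM in fasted and 15.6, 17.3 and 24.1 FPKM in fed livers; 0.77 ± 0.24, not called without fed replicate 2), and Rbm3 (3.37, 4.3 and 3.93 FPKM in fasted and 1.84, 1.86 and 1.61 FPKM in fed livers; 0.94 ± 0.20). Hspa1b did not pass (0.58 ± 0.47). Of 8 measured cell cycle genes 3 fell, beside 32.8% of all genes. They were Pcna (-0.53 ± 0.14), the replicative helicase gene Mcm6 (-1.04 ± 0.34) and cyclin D1 Ccnd1 (-1.12 ± 0.41, not called with either other scaling or without fasted replicate 1 or fed replicate 2). Mcm5 did not pass (-0.77 ± 0.37). Of 6 metallothionein and metal transporter genes, Mt1 and Mt2 rose and 2 transporter genes fell (3 and 2 with median-of-ratios scaling), Slc39a4 (-0.96 ± 0.20) and Slc30a10 (-1.08 ± 0.30). Slc39a14 did not pass (0.58 ± 0.28).

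Muscle markers and intronic depth differed between the groups. With either as a covariate the counts of several lists changed by more than 1.5 times. Calls also became fewer over all 10719 genes, where 1205 rose and 3513 fell without a covariate. These counts were 532 and 1826 with the muscle marker level and 708 and 2111 with the depth ratio. Both covariates moved with feeding state at ZT4, which can widen the error, so a lost call does not show a smaller change. Rises and falls with the muscle marker level were 1 and 8 for NRF2 antioxidant genes, 0 and 8 for the growth hormone axis, 3 and 4 for acute phase genes and 0 and 7 for interferon-responsive genes. They were 6 and 3 for insulin and FOXO genes, 0 and 0 for CREB-responsive genes, 0 and 4 for ATF4 targets, 3 and 3 for bile acid genes and 1 and 17 for fatty acid and triglyceride synthesis. They were 1 and 3 for autophagy and lysosome genes, 0 and 3 for ribosomal proteins and 0 and 1 for the cell cycle, and no proteasome or respiratory chain gene passed. With the depth ratio, rises and falls were 7 and 1 for acute phase genes, 0 and 12 for complement and coagulation, 0 and 8 for interferon-responsive genes and 0 and 4 for extracellular matrix genes. They were 1 and 0 for CREB-responsive genes, 2 and 3 for ATF4 targets, 2 and 4 for bile acid genes, 6 and 1 for autophagy and lysosome genes and 9 and 0 for proteasome subunits. They were 1 and 0 for heat shock genes, 0 and 1 for the respiratory chain, and 0 and 0 for ribosomal proteins and the cell cycle. Glucose synthesis and amino acid breakdown had 11 and 0 with the muscle marker level and 13 and 0 with the depth ratio, the urea cycle 3 and 0 with the muscle marker level, and metallothioneins and transporters 2 and 1 with either. Endothelial markers had 0 and 2, then 0 and 1, and cholangiocyte markers 0 and 1 with either. The counts of fatty acid oxidation genes were 26 and 0, then 31 and 0, and those of cholesterol genes 0 and 22, then 0 and 24.

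**Figure D2:**
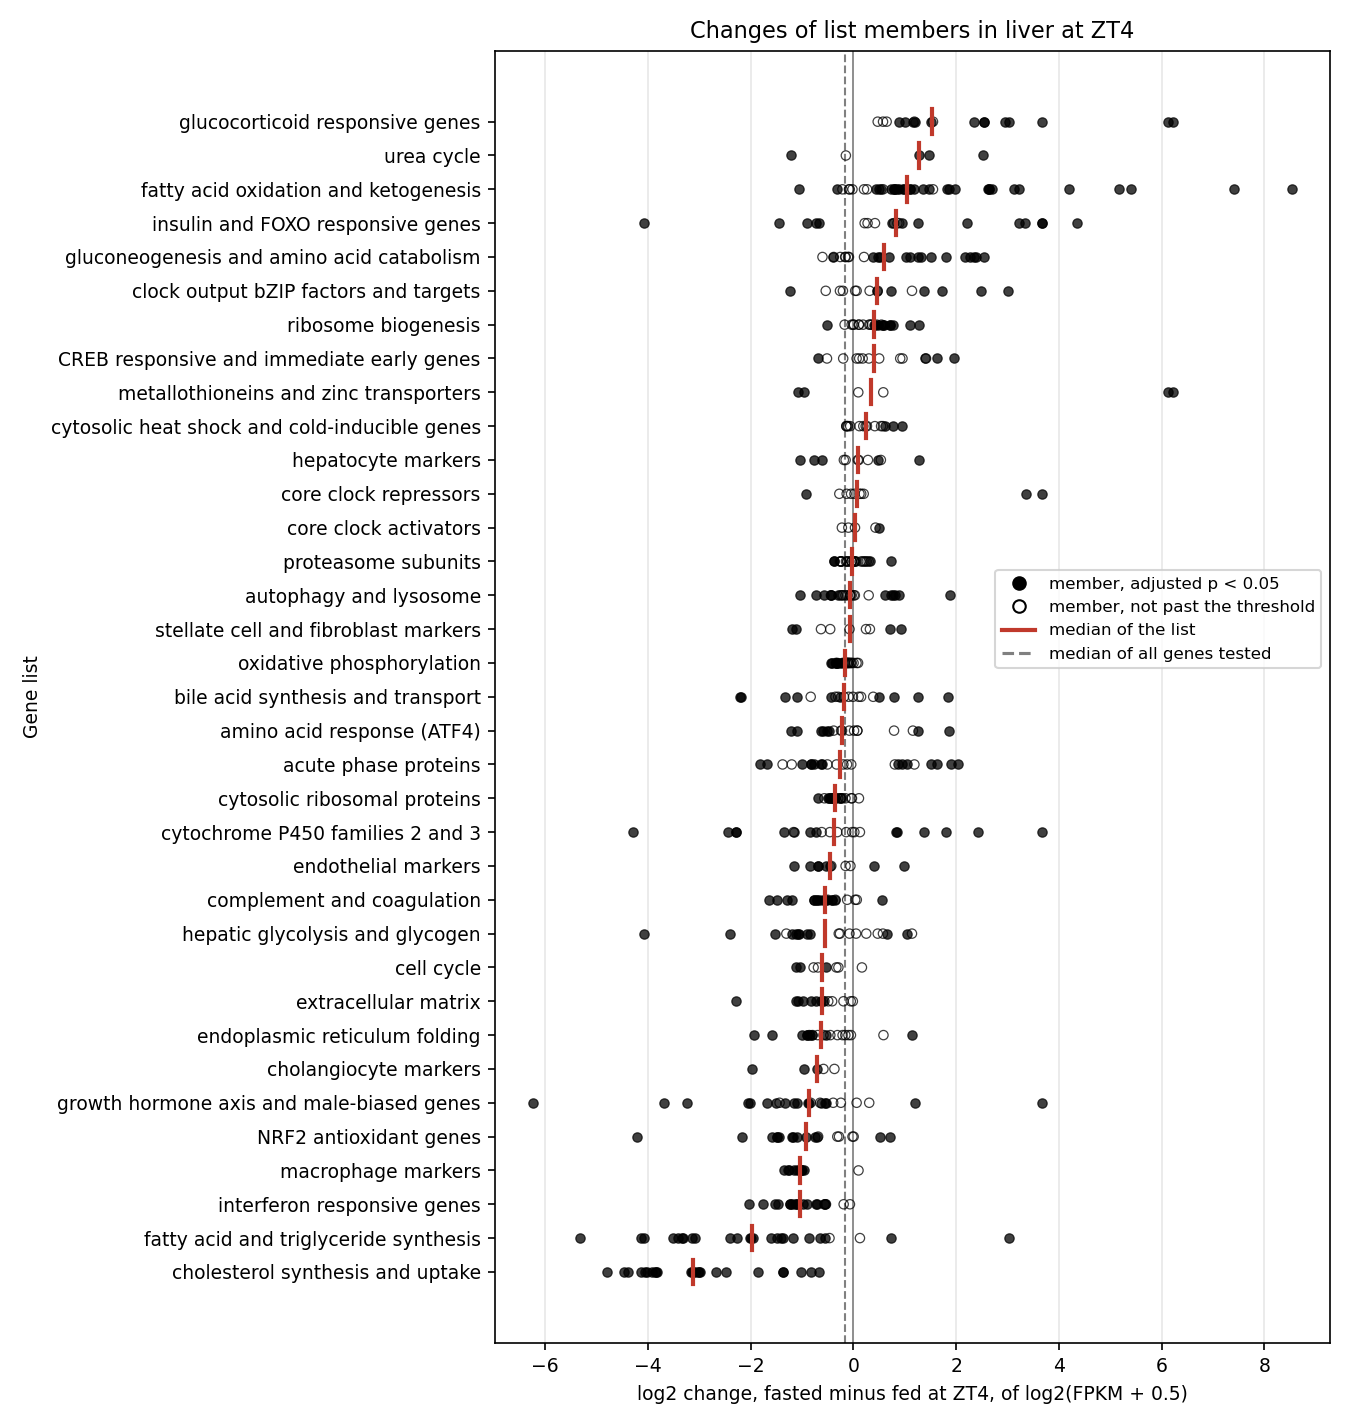
Change of each tested list member at ZT4 (horizontal axis, log2 scale), filled where it passed the test and open where it did not, for lists of at least 5 tested members, with the list medians and, dashed, the median of all genes at -0.17. Medians run between 1.53 for glucocorticoid-responsive genes and -3.12 for cholesterol genes.

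In the core clock Per1 and Ciart changed by far the most. Over all genes 11.2% rose and 32.8% fell, and the core lists are short, so their counts say little beside these shares. Of 5 activator genes Clock alone rose (6.09, 7.31 and 8.06 FPKM in fasted and 4.42, 5.46 and 4.85 FPKM in fed livers; 0.50 ± 0.19, adjusted p = 0.0349). The call ended without 4 of the 6 libraries in turn (fasted replicates 3 and 4, fed replicates 2 and 5), and the change turned to -0.086 with the intronic depth ratio as a covariate. Arntl (0.032 ± 0.17), Npas2 (-0.10 ± 0.20) and Rora (0.43 ± 0.21) did not pass. Of 10 repressor genes, Per1 and Ciart rose and Bhlhe40 fell. Per1, a light- and hormone-inducible period gene (chromosome 11, 69095217 to 69109960), read 10.7, 8.83 and 11.7 FPKM in the fasted libraries, against 0.353, 0.287 and 0.415 FPKM in the fed libraries (3.67 ± 0.22, adjusted p = 2.7e-13). Ciart, a repressor of CLOCK-BMAL1 (chromosome 3, 95878503 to 95882251), read 8.68, 3.43 and 8.79 FPKM in the fasted libraries, against 0.236, 0.214 and 0.097 FPKM in the fed libraries (3.35 ± 0.37, adjusted p = 3.51e-08). In both, the lowest fasted value was far above the highest fed value. Bhlhe40 (10.4, 7.58 and 13.7 FPKM in fasted and 32.7, 20.2 and 12 FPKM in fed livers; -0.92 ± 0.34) had overlapping groups and lost its call under both other scalings and without fasted replicate 1 or 3 or fed replicate 2 or 4. Per2 (-0.13 ± 0.29), Per3 (0.15 ± 0.24), Cry1 (0.12 ± 0.23), Cry2 (0.20 ± 0.17), Nr1d1 (32.7, 24.5 and 25.6 FPKM in fasted and 28.2, 26.4 and 30.3 FPKM in fed livers; -0.045 ± 0.36), Nr1d2 (-0.27 ± 0.21) and Bhlhe41 (0.021 ± 0.15) did not pass. Of 15 clock output genes, 6 rose and 1 fell (6 and 2 without fasted replicate 3). With either the muscle marker level or the intronic depth ratio as a covariate, 3 rose and 1 fell. The P450 reductase gene Por (473, 211 and 242 FPKM in fasted and 40.4, 29.3 and 37.6 FPKM in fed livers; 3.01 ± 0.27) and the heme synthesis gene Alas1 (2.48 ± 0.55) rose. So did the deubiquitinase gene Usp2 (2.37, 2.08 and 2.12 FPKM in fasted and 0.396, 0.263 and 0.276 FPKM in fed livers; 1.73 ± 0.24) and the bZIP factor gene Tef (0.45 ± 0.14, not called without fasted replicate 3). The NAD synthesis gene Nampt (0.74 ± 0.20) and the transferrin receptor gene Tfrc (1.38 ± 0.36) rose, and the carboxylesterase gene Ces3a fell (-1.24 ± 0.16). Rgs16 did not pass (1.14 ± 0.86). Genes annotated on the other strand overlap Ciart, Arntl, Rora, Cry2, Nr1d1, Bhlhe40 and Bhlhe41, and Per3 shares bases with Camta1 on its own strand.

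The canonical E-box (CACGTG), the letters that CLOCK-BMAL1 recognises, was searched in the same 250-base windows on both strands. It occurred in 4 of 8 core repressor genes with an entry (50%: Per1, Ciart, Cry1 and Bhlhe41), against 10.2% of tested genes and 6.02% of all promoters. The stretches with E-boxes are shown for Per1 and Ciart, whose changes were largest. Nr1i3 is shown as the first of the 10 genes named below as higher at this hour than at the others. How many of the other genes named for the hour hold the letters was not counted, so that stretch describes Nr1i3 alone. Capitals mark the E-box.
Per1: cccaagtcCACGTGcagggatg
Ciart: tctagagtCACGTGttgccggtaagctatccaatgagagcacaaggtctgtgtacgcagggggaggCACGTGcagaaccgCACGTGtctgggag
Nr1i3: aaactgCACGTGaaaaagct
They lie at chr11:69098775-69098796 (+ strand), chr3:95882259-95882352 (- strand) and chr1:171213720-171213739 (+ strand). The window of Ciart holds 3 E-boxes and those of Per1 and Nr1i3 1 each. Cry1 and Bhlhe41, which hold the letters too, did not pass at ZT4. The Per1 stretch lies within the longer gene model given above, since RefSeq places a start inside it.

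Most genes called at ZT4 were also called at each other hour taken alone. Of the 4718 genes called at ZT4, 84.3% were also called at ZT0, 65.7% at ZT8, 58.4% at ZT12, 66.1% at ZT16 and 69.9% at ZT20. Of all genes tested, 67.6%, 38.3%, 40.5%, 46.9% and 45.5% were called at these hours in turn. The sign was opposite to that at ZT4 in 110, 11, 48, 67 and 14 of the genes called at both. The genes called at both are 54.9%, 75.5%, 63.5%, 62% and 67.6% of the calls at those hours. The test of the difference itself, the ZT4 change minus the mean change of the other 5 times, called 312 genes (2.91%), of which 103 were higher (0.961%) and 209 lower (1.95%) at ZT4. In 73 of them the change had the same sign and was larger at ZT4, and in 11 it was smaller. In 50 it had the opposite sign with both passing, in 56 only the change at ZT4 passed and in 122 only the mean of the other times did. The change at ZT4 lay beyond that of every other time in 282 of these 312. Genes called for a difference from the mean of the other hours are likely to lie so in advance. The count of 282 is therefore no separate support for the hour. The stricter test, which asks that ZT4 differ from each other time, called 0 genes after adjustment in limma; 83 genes (0.774%) had an unadjusted p under 0.05, 27 higher and 56 lower. With a pseudocount of 0.1, or without fasted replicate 4, it called 2, Tgoln1 and Dhx40, both lower. The count of 312 was 227 without fasted replicate 1 (109 higher, 118 lower), 192 without fasted replicate 4, 157 without fed replicate 5 and 123 without fed replicate 4. The muscle markers moved with the same contrast, and with their mean level as a covariate 4 genes passed, St5, Arntl, Clpx and Cyp4f15, all lower. No gene below passed the adjusted stricter test with all 5 other hours and all libraries. The 20 named are the 10 each way with the smallest unadjusted p of that test. Only genes with a mean of at least 5 FPKM in either group at ZT4 were eligible, gene models left out. Because the same libraries served for this choice, their differences from the mean of the other hours were favoured in advance. These differences and their p-values describe the genes and are no separate support.

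For Per1 and Ciart the large change at ZT4 came with very low fed levels. Fasted means of Per1 at ZT0, ZT4, ZT8, ZT12, ZT16 and ZT20 were 9.31, 10.4, 10.2, 10.3, 9.37 and 8.7 FPKM, nearly flat, and fed means were 0.623, 0.352, 4.97, 8.86, 3.31 and 2.16 FPKM, lowest at ZT4. For Ciart, fasted means at the same times were 5.3, 6.97, 12.9, 9.62, 6.33 and 3.06 FPKM and fed means 0.1, 0.183, 7.34, 11.8, 2.16 and 0.387 FPKM. The change of Per1 at ZT4 exceeded the mean of the other 5 times by 2.16 ± 0.24 (limma, adjusted p = 4.89e-07) and that of Ciart by 1.96 ± 0.40 (adjusted p = 0.00505). The changes nearest to those at ZT4 were at ZT0, 3.10 for each gene. Without ZT0 among the hours, Per1 passed the stricter test (limma, adjusted p = 0.000556). ZT0 was left out after the data were seen, and taking out the nearest hour makes that test easier to pass. This pass therefore cannot show that the change is particular to ZT4. Of the 10 core repressors 3 were higher and 1 lower at ZT4 by the difference test, against 0.961% and 1.95% of all genes. Per3 (1.15 ± 0.27, not called without fasted replicate 3) and, among the output genes, Usp2 (1.40 ± 0.27), Tef (0.59 ± 0.16) and Wee1 (0.86 ± 0.24) were also higher at ZT4 relative to the other hours. Nr1d2 (-1.17 ± 0.23) and Arntl (-0.68 ± 0.19) were lower. The call of Arntl ended with median-of-ratios scaling. The calls of Tef, Wee1 and Arntl ended without ZT12 among the hours compared, without fasted replicate 3 or 4, or without any one of the fed libraries, and that of Wee1 also without fasted replicate 1. That of Nr1d2 ended without ZT0, where its change was 2.98. Muscle markers moved with this contrast, being higher in fasted liver at ZT4 and in fed liver at ZT8 to ZT20, and with their level as a covariate Arntl alone of these clock genes passed.

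Among the genes higher at this hour, Nr1i3 encodes CAR, a nuclear receptor that senses drugs, and overlaps Tomm40l on the other strand, whose reads this kit cannot separate. Nr1i3 read 130.0, 111 and 128 FPKM in the fasted libraries, against 33.4, 27 and 30.8 FPKM in the fed libraries (2.00 ± 0.17). Its changes at ZT0, ZT8, ZT12, ZT16 and ZT20 were 1.21, 0.87, 0.66, 1.02 and 1.07, a difference from their mean of 1.03 ± 0.19 (adjusted p = 0.00107). Its fasted level was highest (123 ± 10.6 FPKM) and its fed level lowest (30.4 ± 3.21 FPKM) at ZT4 among the 6 times (mean ± SD, n = 3). Of the 20, Cyp7a1 differed most in size, by 2.71 ± 0.56 (adjusted p = 0.00505): it rose at ZT4, while its changes at the other hours were -0.11, -0.44, -1.01, -1.68 and -1.14. Fasted means of Cyp7a1 over the 6 times were 18.9, 100.4, 41.9, 59.1, 14.2 and 17.5 FPKM, highest at ZT4, and fed means 17.2, 27.3, 48.8, 92.7, 45.2 and 39.7 FPKM, highest at ZT12. The bile acid receptor gene Nr1h4 rose at ZT4 as well (0.50 ± 0.12, against a mean of -0.22 at the other hours; difference 0.72 ± 0.13). A pair of redox genes was also named. Glrx, a glutaredoxin, read 56.9, 55.6 and 59.1 FPKM in fasted and 16.4, 15.2 and 15.7 FPKM in fed livers (1.83 ± 0.11; difference 0.81 ± 0.12). The carbonyl reductase gene Cbr1 read 71.8, 68.2 and 80.2 FPKM in fasted and 48.7, 33.1 and 37.3 FPKM in fed livers (0.89 ± 0.17; difference 1.05 ± 0.18). Txndc11, a thioredoxin-domain protein, rose by 0.81 ± 0.17 (difference 0.92 ± 0.19). St3gal4, a sialyltransferase, Cep85, a centrosomal protein, and Sh3bp5 had changes of 0.12, 0.20 and 0.19 at ZT4, none passing, against means of -0.70, -0.79 and -0.54 at the other hours. Ttc23 was lower by less at ZT4 (-0.48, not called with either other scaling) than at the other hours (mean -1.19). Genes on the other strand overlap St3gal4, Ttc23, Txndc11 and Sh3bp5.

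**Figure D3:**
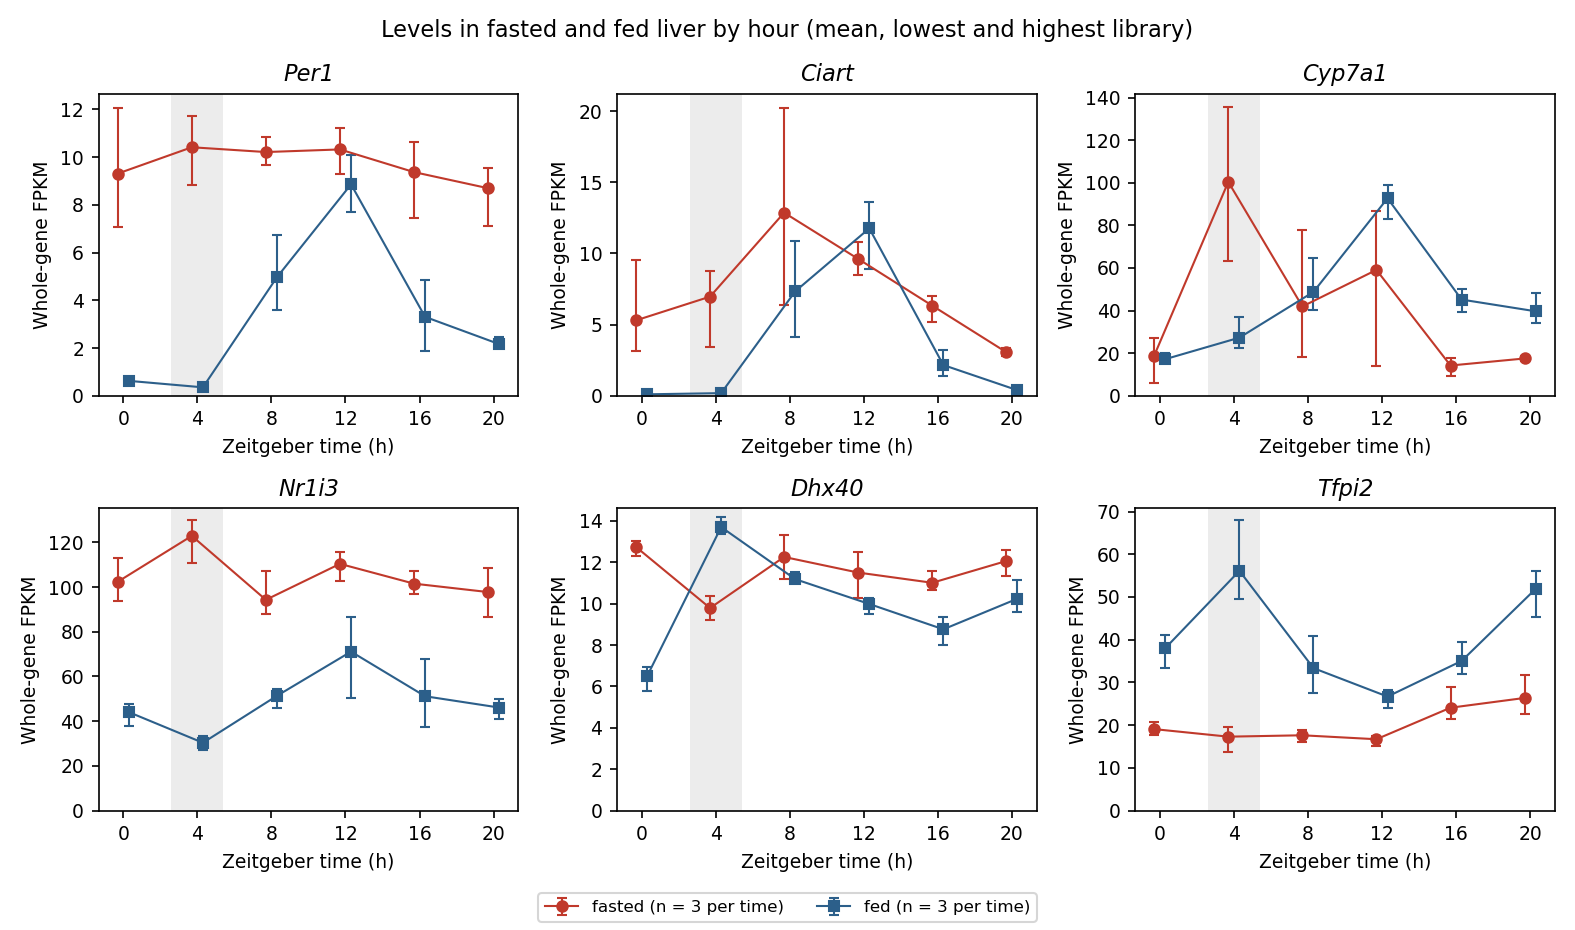
Whole-gene FPKM over the 6 times in fasted and fed liver for Per1, Ciart, Cyp7a1, Nr1i3, Dhx40 and Tfpi2, with lines for means and bars from the lowest to the highest of 3 libraries; ZT4 is shaded. Per1 is nearly flat in fasted liver and lowest at ZT4 in fed liver, and Cyp7a1 is highest at ZT4 in fasted liver.

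Among the genes lower at this hour, Dhx40, an RNA helicase gene, read 9.19, 9.82 and 10.4 FPKM in the fasted libraries, against 13.4, 14.2 and 13.5 FPKM in the fed libraries (-0.47 ± 0.087, adjusted p = 9.3e-05). Its changes at the 5 other hours were above 0 (0.92, 0.12, 0.19, 0.32 and 0.23; difference -0.82 ± 0.10). Its fasted values were lower and its fed values higher at ZT4 than at any other hour in the mean, 9.79 ± 0.585 and 13.7 ± 0.425 FPKM. St5, a regulator of small GTPases, fell to 7.28, 6.18 and 4.96 FPKM in the fasted libraries, against 12, 14.8 and 13.2 FPKM in the fed libraries (-1.07 ± 0.18; other hours 0.24 in the mean; difference -1.31 ± 0.19). Tfpi2, an inhibitor of serine proteases, was lower in fasted liver at every hour and by most at ZT4 (13.8, 18.5 and 19.6 FPKM in fasted and 49.4, 68 and 50.9 FPKM in fed livers; -1.67 ± 0.16, other hours -0.81; difference -0.86 ± 0.17). The depalmitoylase gene Abhd17c (-1.04 ± 0.16), the phosphoinositide phosphatase gene Mtmr14 (-0.56 ± 0.11) and the Golgi gene Tvp23b (-0.81 ± 0.15) fell at ZT4, with means of -0.13, 0.081 and -0.11 at the other hours. Tgoln1, a protein of the trans-Golgi network, read 32.6, 39.1 and 39.4 FPKM in fasted and 45, 42.7 and 35.8 FPKM in fed livers at ZT4, without a call (-0.15 ± 0.13). Its mean change at the other hours was 0.87 (difference -1.02 ± 0.14, adjusted p = 1.7e-05). The ubiquitin ligase gene Ube4b (0.053), Bsdc1 (0.11) and Cyp4f15, a fatty acid hydroxylase gene (-0.16), likewise did not pass at ZT4 and averaged 0.80, 0.86 and 0.82 at the other hours. Genes on the other strand overlap Tgoln1, St5, Ube4b and Mtmr14. Of the 20 genes named for the hour, 19 passed the difference test without fasted replicate 1 (not Tvp23b). Without each library in turn 17 did (not Ttc23, Sh3bp5 or Tvp23b). Since the genes were chosen from the same libraries, these counts are no separate support for the hour. With the muscle marker level as a covariate all 20 kept the sign of their difference and 2, St5 and Cyp4f15, passed. Sizes moved both ways among the genes that lost their call in that fit. The difference of Cep85 went from 0.99 to 1.35 and that of Bsdc1 from -0.76 to -1.23. That of Tfpi2 went from -0.86 to -0.23 and that of Tgoln1 from -1.02 to -0.77.

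**Figure D4:**
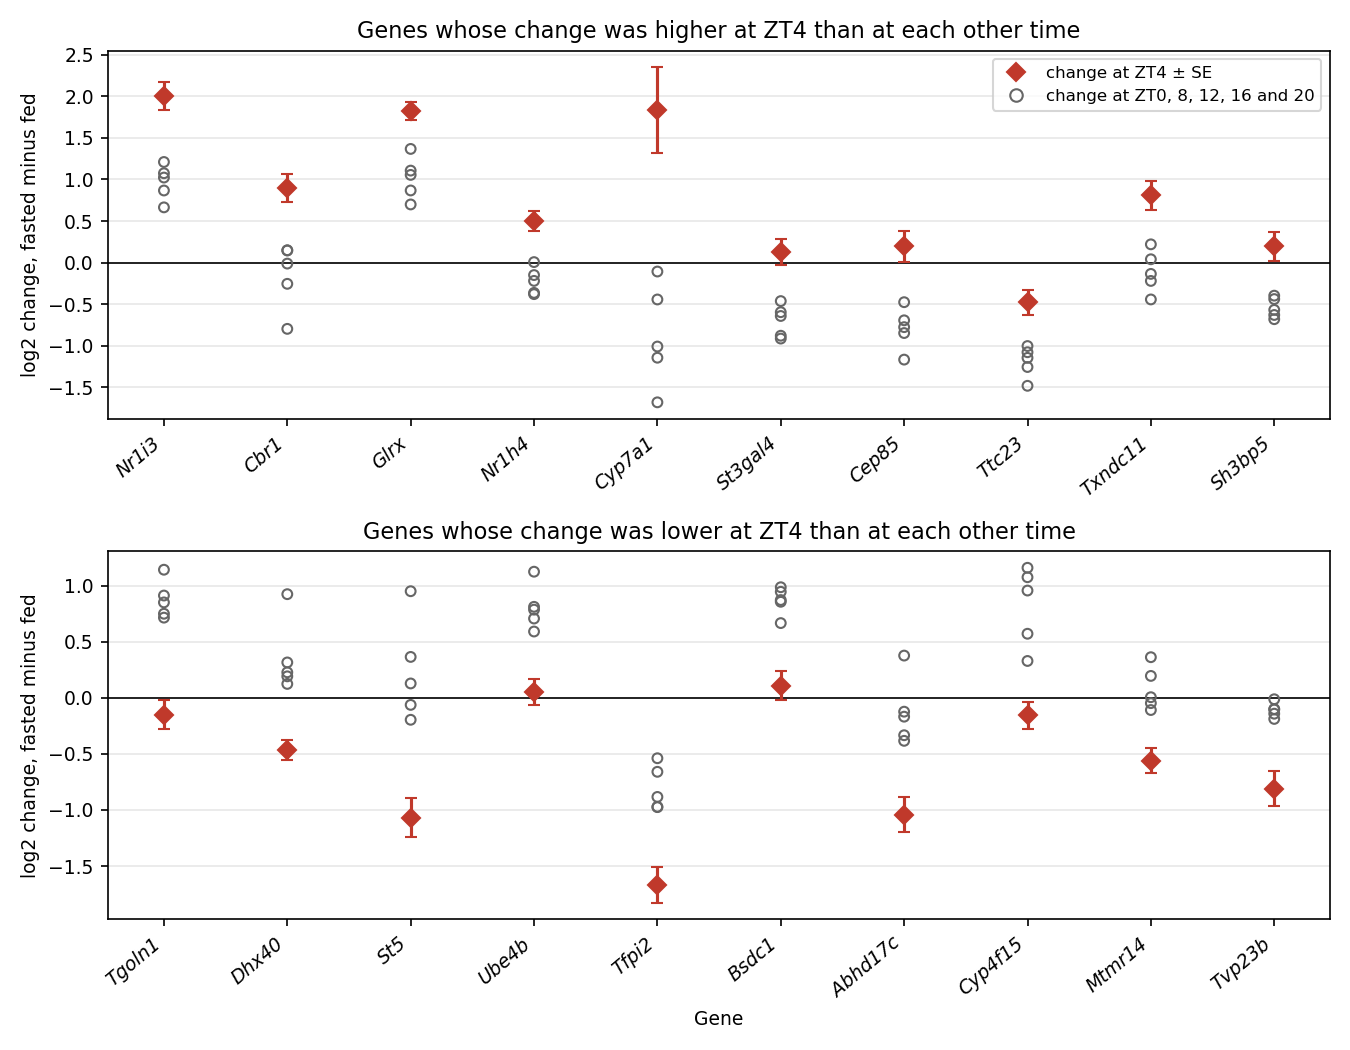
Change at ZT4 (filled point with its SE) and at each of the other 5 times (open points) for the 10 genes higher and the 10 genes lower at ZT4, on the log2(FPKM + 0.5) scale. The ZT4 point lies beyond all other times in each gene, as the choice of the genes required.

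In some metabolic genes, chosen after their values were seen, the change also differed at ZT4. Of the cholesterol genes, Hmgcs1 (-1.46 ± 0.32), Lss (-0.78 ± 0.19) and Srebf2 (-0.75 ± 0.19) fell further at ZT4 than in the mean of the other hours. Fasted means of Hmgcs1 at ZT0 to ZT20 were 14.6, 14.4, 12.7, 20.9, 31.8 and 22.9 FPKM and fed means 148, 309, 242, 98, 112 and 180.1 FPKM, the fed level being highest at ZT4. Asl rose further (0.75 ± 0.17), with its lowest fed mean at ZT4 (198 ± 19.6 FPKM). G6pc, which did not pass at ZT4, had a mean change of 1.03 at the other hours (difference -1.41 ± 0.35). The insulin receptor substrate gene Irs1 fell at ZT4 (1.08, 1.65 and 1.38 FPKM in fasted and 3.66, 3.03 and 2.31 FPKM in fed livers; -0.90 ± 0.20; difference -1.08 ± 0.22). So did the autophagy gene Gabarapl1 (-0.57 ± 0.22; difference -1.35 ± 0.24), whose fall at ZT4 was not called under either other scaling or without fasted replicate 3 or 4 or any fed library. Without fasted replicate 1 the differences of G6pc, Lss and Srebf2 did not pass. Without fed replicate 4 those of G6pc and Asl did not pass, and without fed replicate 5 those of Lss and Srebf2 (and that of Lss without ZT12). That of Srebf2 also ended without fed replicate 2 or fasted replicate 4, and that of G6pc without fed replicate 2 or fasted replicate 3. With the muscle marker level as a covariate none of the 7 genes did.

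Intronic signal, which comes mostly from unspliced transcripts, was tested beside exonic signal. Of 10386 genes tested on exons, 4433 changed (42.7%), with 1312 rises (12.6%) and 3121 falls (30.1%). Of 13289 tested on introns, 2046 changed (15.4%), with 611 rises (4.6%) and 1435 falls (10.8%). Among 10258 genes tested in both, 1257 were called in both, which is 28.7% of the exonic and 70.9% of the intronic calls, and 1226 of them had the same sign. The exonic minus intronic change passed for 740 of 10258 (7.21%), with 409 higher (3.99%) and 331 lower (3.23%). Single libraries moved these counts. Without fasted replicate 1, 1089 intronic and 273 exonic minus intronic calls were made, without fasted replicate 4, 1256 and 396, and without fed replicate 2, 1316 and 362. The exonic minus intronic count was also 475 and 451 without fed replicates 4 and 5. Intronic depth differed between the groups, as given above, and with its ratio to exonic depth as a covariate 160 genes had an exonic minus intronic change. By the spacing of low values, intronic FPKM is scaled to intronic reads alone. Intronic and exonic minus intronic changes are therefore relative, and an offset common to all genes would not be seen in them. In a fit of the 6 libraries alone 779 intronic and 143 exonic minus intronic calls were made, and with the muscle marker level as a covariate 430 and 41.

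The largest intronic rises repeated those of whole genes: Cyp4a14 (371, 364 and 477 FPKM in fasted and 3.12, 1.96 and 2.16 FPKM in fed livers; 7.38 ± 1.03), Cyp4a10 (5.89 ± 0.67) and Mt2 (9.44 ± 2.13). Fasted replicate 3 was far below the other fasted libraries in Mt2 (1085, 8.17 and 307 FPKM in fasted and 3.23, 0 and 0 FPKM in fed livers). Gadd45b, a stress-induced gene (18.6, 2.03 and 6.27 FPKM in fasted and 0, 0 and 0 FPKM in fed livers), and the immediate early gene Egr1 (9.06, 1.85 and 2.17 FPKM in fasted and 0, 0 and 0 FPKM in fed livers) were listed at 0 on introns in all fed libraries. For genes at 0 the fitted change depends on the pseudocount of 0.05 and is no bound. Exonic Egr1 stood at 21.7, 5.43 and 5.4 FPKM in fasted and 2.96, 8.76 and 7.07 FPKM in fed livers, which gave an exonic minus intronic change of -5.52 ± 1.32. The largest intronic falls were those of Efna3 (0, 0.393 and 0.0731 FPKM in fasted and 19.1, 30.2 and 32.5 FPKM in fed livers) and Gpr12 (0, 0 and 1.44 FPKM in fasted and 6.53, 21 and 15.5 FPKM in fed livers; not called without fasted replicate 1), whose exonic signal was too low to test. Falls of the lipase gene Pnpla5 (0.0541, 0 and 0 FPKM in fasted and 4.65, 5.22 and 4.14 FPKM in fed livers), Ugt2b38, a glucuronosyltransferase gene (-5.69 ± 0.96), and Clec2h (-5.45 ± 0.83) followed. Efna3 has an antisense gene across it, and since the kit does not mark strand its reads cannot be assigned to a strand.

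Among the genes whose exonic change lay above the intronic one, Cidec was the clearest case, with a rise on exons. Exonic values were 74.2, 50.3 and 68.3 FPKM in fasted and 1.24, 1.05 and 1.01 FPKM in fed livers, a change of 5.32 ± 0.44. Intronic values were 25.8, 11.6 and 17.6 FPKM in fasted and 7.4, 7.12 and 7.26 FPKM in fed livers, a change of 1.25 ± 0.52 that did not pass. The difference was 4.07 ± 0.30 (limma, adjusted p = 1.17e-09). Nrp1, a semaphorin and VEGF coreceptor gene, had a far larger fall of intronic signal (1.55, 1.49 and 1.66 FPKM in fasted and 33.1, 28.8 and 42.3 FPKM in fed livers) than of exonic signal (-1.02 ± 0.20; difference 3.39 ± 0.37). Pnpla5 (difference 4.07 ± 0.32), Clic3 (3.89 ± 0.63) and Mycn (3.68 ± 0.69) had exonic means under 2 FPKM in both groups, and Clic3 overlaps Paxx on the other strand. These positive differences were not rises of the gene. Leaving out each library in turn, whole-gene changes were -2.00 to -1.88 for Pnpla5, -0.67 to -0.33 for Clic3 and -1.22 to -0.69 for Mycn. In the opposite direction, Klf13, a zinc finger factor gene, had intronic values of 44.5, 15.1 and 27.7 FPKM in fasted and 1.86, 0.946 and 0.871 FPKM in fed livers with exons near level (-0.17 ± 0.21; difference -4.63 ± 0.47). Genes on the opposite strand overlap it. Sra1, which lies beside Eif4ebp3 on the opposite strand, had intronic values of 330.2, 76.3 and 93.7 FPKM in fasted and 8.01, 9.47 and 11.6 FPKM in fed livers (difference -3.68 ± 0.54). Treh, the trehalase gene, which overlaps Phldb1 on the other strand, changed by -3.63 ± 0.59. Sdf2l1, a stress-induced chaperone partner of the endoplasmic reticulum, had 2.49, 3.55 and 5.68 FPKM in fasted and 1.27, 0.639 and 0 FPKM in fed livers in introns. Its exons had 8.5, 9.32 and 27.7 FPKM in fasted and 37.7, 65 and 50.3 FPKM in fed livers, a difference of -5.28 ± 1.15 that was not called without fed replicate 5.

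Among genes of endoplasmic reticulum folding, which include Sdf2l1, the exonic minus intronic change was often lower. Of the 20, 8 fell and 2 rose on exons (all genes: 30.1% fell). On introns 4 rose and 0 fell, and the rises numbered 1 in a fit of the 6 libraries of ZT4 alone, 1 with the muscle marker level as a covariate and 9 with median-of-ratios scaling. In 11 genes the exonic minus intronic change was lower (against 3.23% of all genes) and in 0 higher. The median difference was -1.41, against 0.056 over all genes. The count of 11 was 8 without fasted replicate 1, 13 with median-of-ratios scaling, 4 with the intronic depth ratio as a covariate, 3 in the fit of the 6 libraries, and 0 with the muscle marker level as a covariate. The cholesterol genes had 21 intronic falls of 25 and 25 exonic falls, with a median change of -2.25 on introns and -3.11 on exons; the exonic minus intronic change was lower in 6 and higher in 1. The count of 6 was 4 without fasted replicate 1 or in the 6 libraries alone, 2 with the depth ratio and 0 with the muscle marker level as a covariate, and the intronic count was 11 with that level. Of the 40 fatty acid oxidation genes, 17 rose and 1 fell on introns (all genes: 4.6% rose, 10.8% fell). The exonic minus intronic change was higher in 8 (all genes: 3.99%) and lower in 0. The count of 8 was 3 without fasted replicate 1, 2 with the depth ratio as a covariate or in the 6 libraries alone, and 1 with the muscle marker level; the 17 intronic rises were 11 with the muscle marker level and 10 in the 6 libraries. Glucocorticoid-responsive genes rose on introns in 10 of 16 tested (6 with the muscle marker level or in the 6 libraries) and on exons in 11. Their median change was 2.19 on introns and 1.59 on exons. The exonic minus intronic change was lower in 3 (all genes: 3.23%) and higher in 0. The count of 3 was 1 with the depth ratio. It was 0 without fasted replicate 1, with the muscle marker level or in the 6 libraries.

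**Figure D5:**
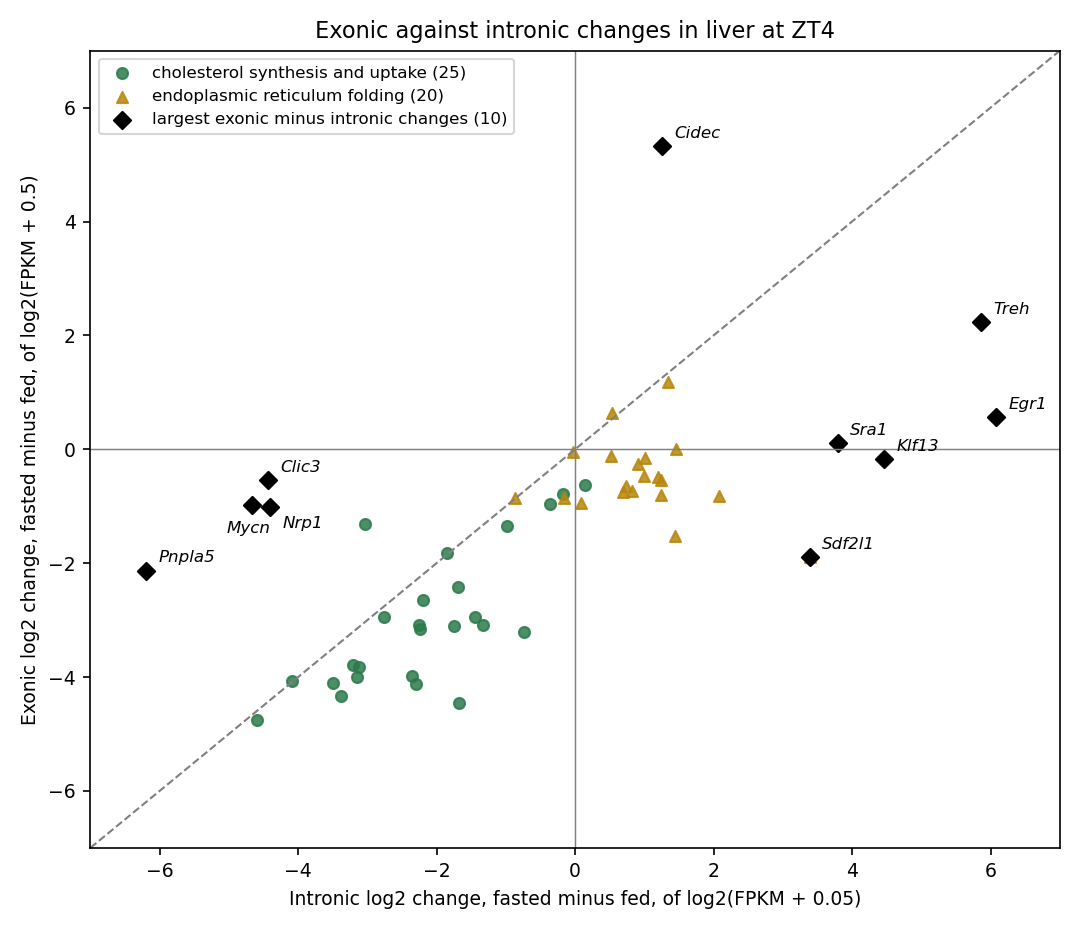
Exonic change (vertical axis) against intronic change (horizontal axis) at ZT4, both on log2 scales, for 25 cholesterol genes, 20 endoplasmic reticulum folding genes and the 10 genes with the largest exonic minus intronic changes. Most cholesterol genes lie at falls on both axes, and folding genes lie mostly to the right of the diagonal, with intronic changes above exonic ones.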

How the data were processed

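Liver and gastrocnemius RNA of 72 samples (24 groups of 3) was extracted with TRIzol and made into TruSeq RNA v2 libraries, per the labels' protocols; this kit does not mark strand. Base calling with CASAVA 1.8.2 and the mouse build mm10 come from the submitters' processing notes; how reads were aligned and counted, and on which annotation, is not given in the sources used here. FPKM values were deposited by the authors for 20561 whole genes, and exonic and intronic values of 19433 genes, whose unit is read here from the values themselves. The lowest values step by read only in part, so depths are estimates, whole reads were not recovered and no count test was run. 0 sample columns were left unused.

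Genes needed at least 1 FPKM (intronic 0.1) in at least 3 liver libraries. log2(FPKM + 0.5), intronic log2(FPKM + 0.05), was fitted with limma 3.58.1 (R 4.3.3, moderated with a mean trend) over the 36 liver libraries as 12 groups, and the ZT4 contrast, the exonic minus intronic contrast and the ZT4 change minus the mean change of the other 5 times were tested two-sided, with Benjamini-Hochberg adjustment over all genes tested and a threshold of 0.05. The stricter test of the hour takes the largest of the 5 pairwise p-values. Genes at least 100 times higher in muscle than in liver were set aside. Simulated data tested the fit at this size: of 50 genes changed by 1 on the log2 scale among 10780, 82% were recovered. Recovery was computed for each test apart, so this share is not the power of every test used. Simulated noise was normal and independent between genes and libraries, so a library that stands apart in many genes was not simulated. Figures were drawn with matplotlib 3.10.9, and tables made with pandas 2.3.3 and NumPy 2.4.6 under Python 3.11.15. Gene positions are those of GENCODE M21 on mm10, matched by symbol.

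The comparison, its gene lists (43, of which 13 are cell type markers) and the rule for named genes were chosen with earlier results of these data known. The rule names the 10 largest rises and falls of at least 5 FPKM whose groups do not overlap, the 10 genes each way with the smallest p of the stricter test (mean of at least 5 FPKM in a group), for each list up to 4 members of smallest adjusted p and, of those short of the threshold, the one that changed most, every core clock gene, and the 5 largest intronic and exonic minus intronic changes each way, Gm, Rik, Rps and Rpl pseudogene models left out. Cpt1a, Acot1, Fgf21, Pck1, G6pc, Igfbp1, Ddit4, Insig1, Msmo1, Nr0b2, Srebf2, Herpud1, Irs1, Gabarapl1, Tef, Wee1, Bdh1, Acaa2, Prodh2, Lpin1, Dgat1, Nop10, Nampt, Tfrc, Sesn2, Sesn3, Gadd45a, Pik3r1, Ldha, Nqo1, Srxn1, Igfbp2, F9, Hnf4a, Stab1, Otc, Ass1, Adipoq, Clpx and Hnrnpdl fall outside it or are named beside it, and were chosen after their values were seen. A few genes within this rule are left unreported here. Alternatives changed the pseudocount, the filter, the scaling (median-of-ratios, quantile, length trend removed), the muscle threshold, the libraries in the fit and the covariates (replicate number, mean level of the muscle markers); fits without ZT0 or ZT12 and with the ratio of intronic to exonic depth were added after seeing the data.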

Additional observations from a re-analysis of the deposited data

Results flagged for a closer look

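A total of 35 named genes are listed because the fasting change at ZT4 differed from the mean change at the other 5 times by the test of the difference itself (limma, Benjamini-Hochberg adjusted p under 0.05; 2.91% of all genes passed it). Values are that difference on the log2(FPKM + 0.5) scale. The level of the muscle markers moved with the same contrast, and with it as a covariate St5, Arntl and Cyp4f15 alone of the 35 passed.

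Higher at ZT4 among the genes chosen by the stricter test were Nr1i3 (1.03), Cbr1 (1.05), Glrx (0.81), Nr1h4 (0.72), Cyp7a1 (2.71), St3gal4 (0.82), Cep85 (0.99), Ttc23 (0.72), Txndc11 (0.92) and Sh3bp5 (0.74). Lower were Tgoln1 (-1.02), Dhx40 (-0.82), St5 (-1.31), Ube4b (-0.75), Tfpi2 (-0.86), Bsdc1 (-0.76), Abhd17c (-0.91), Cyp4f15 (-0.98), Mtmr14 (-0.64) and Tvp23b (-0.70). Since that choice used the same libraries, the difference test is no separate support for these genes.

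Clock genes and their outputs that differed were Per1 (2.16), Ciart (1.96), Per3 (1.15), Usp2 (1.40), Wee1 (0.86) and Tef (0.59), all higher, and Nr1d2 (-1.17) and Arntl (-0.68), both lower. Metabolic genes that differed were Asl (0.75), higher, and Hmgcs1 (-1.46), G6pc (-1.41), Gabarapl1 (-1.35), Irs1 (-1.08), Lss (-0.78) and Srebf2 (-0.75), all lower.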

How the results depend on the processing

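No paired analysis was possible because the fasted libraries carry replicate numbers 1, 3 and 4 and the fed libraries 2, 4 and 5, which share 1 number. In place of it, the replicate number was a block in the fit of 36 libraries, which called 4190 whole-gene, 3848 exonic, 1509 intronic and 430 exonic minus intronic changes, 288 differences from the other times and 0 by the stricter test. With the muscle marker level as a covariate, 2358 whole-gene, 2033 exonic, 430 intronic and 41 exonic minus intronic changes passed, and 4 differences from the other times. With the ratio of intronic to exonic depth as a covariate, 2819 whole-gene and 160 exonic minus intronic changes passed. The 6 libraries alone gave 779 intronic and 143 exonic minus intronic calls.

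Leaving out each of the 6 libraries gave 3793 to 4562 whole-gene, 3482 to 4259 exonic, 1089 to 2361 intronic and 273 to 831 exonic minus intronic changes, 123 to 227 differences from the other times and 0 to 2 genes by the stricter test. That test also called 2 genes with a pseudocount of 0.1, 1 (Tnni2) with no muscle genes set aside, and 4 without ZT0 (Hnrnpdl and Per1 higher, Tgoln1 and Dhx40 lower). Scaling kept the whole-gene count near its size, 4366 with median-of-ratios and 4566 with quantile normalisation, of which 3326 and 3524 were among the 4718, and 4396 with the length trend removed. Direction changed for Clock (-0.086) and Psmb6 (0.0068) with the depth covariate, and for Psmb6 (0.0039) and Rpl19 (0.0023) with the length trend removed; the cause was not tested. Of the values for named genes, 101 lost their call with the muscle covariate, 52 with the depth covariate, 24 with median-of-ratios scaling and 23 without fasted replicate 1, and 201, 194, 275 and 282 kept direction and side of the threshold. Intronic depth (0.748 to 2.04 M reads estimated) limits intronic values more than exonic ones.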
